A study of Homo sapiens with 24 samples.

Results

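MYB and 9 other transcription regulators of blood stem and progenitor cells (ZNF521, SATB1, HLF, MECOM, GATA2, LMO2, ERG, TAL1 and HHEX) were followed across 24 RNA-seq libraries of acute myeloid leukaemia cell lines. They were chosen by name, and all 10 were found among the 25680 genes of each table. MV411 cells received the combination of 2.5 µM MI-503 for 3 days and 3 nM AC220 for 24 hours, AC220 alone at that dose and time, or MI-503 alone at that dose and time, and their control received DMSO, the vehicle, for a duration not given in the sources used here. MOLM13 and OCI-AML3 cells received 2.5 µM MI-503 for 4 days, against DMSO for 4 days. Each of the 8 groups had 3 libraries, described by the submitters as biological triplicates. RNA came from a fixed number of cells with ERCC spike-in RNA added, and libraries of polyadenylated RNA were sequenced. How the cultures were separated is not given, so p-values measure the spread between these libraries. MI-503 blocks the contact between menin and MLL, and AC220 (quizartinib) inhibits the receptor kinase FLT3. MV411 and MOLM13 carry an MLL fusion and an internal tandem duplication of FLT3, whereas in OCI-AML3 the NPM1 gene is mutated and MLL is not fused. Each line is a single model, so a difference between lines cannot be told apart from a difference between these cultures.

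Menin is a cofactor that holds MLL and MLL fusion proteins on chromatin at genes such as the HOXA cluster and MEIS1, and inhibitors of the contact are known to lower the output of those genes and to release myeloid maturation. MYB is a DNA-binding factor of proliferating progenitors on which MLL-fusion leukaemias are known to depend. GATA2, TAL1, LMO2 and ERG belong to a group of factors that bind the same enhancers in blood stem cells, in which LMO2 bridges TAL1 and GATA proteins without touching DNA itself. The other genes are the chromatin organiser SATB1, the zinc-finger cofactor ZNF521, the homeodomain repressor HHEX, the bZIP factor HLF and the zinc-finger factor MECOM (EVI1).

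RefSeq promoter windows were matched for 8 of the 10 genes, and LMO2 and ZNF521 had no entry. Those of TAL1, GATA2, HHEX and MYB are shown as examples of where motifs of factors among the 10 genes can be read, and windows of other genes of the 10 hold them too. Each RefSeq window (GRCh38.p14) runs from 250 bases before to 50 bases after an annotated start and is written 5′ to 3′ on the gene's strand. Capitals mark GATAA (the core bound by GATA factors), CANNTG (the E-box bound by TAL1 with its partners) and AACNG (the core bound by MYB), each searched on both strands, with no overlap between motifs in these windows.
TAL1 chr1:47232286-47232585 (minus strand): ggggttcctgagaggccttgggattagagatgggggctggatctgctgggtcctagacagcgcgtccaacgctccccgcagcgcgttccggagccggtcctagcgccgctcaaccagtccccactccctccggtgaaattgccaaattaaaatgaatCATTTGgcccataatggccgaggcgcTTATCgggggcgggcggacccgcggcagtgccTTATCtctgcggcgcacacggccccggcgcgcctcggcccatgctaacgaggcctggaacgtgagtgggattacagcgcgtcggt
GATA2 chr3:128488481-128488780 (minus strand, the downstream start): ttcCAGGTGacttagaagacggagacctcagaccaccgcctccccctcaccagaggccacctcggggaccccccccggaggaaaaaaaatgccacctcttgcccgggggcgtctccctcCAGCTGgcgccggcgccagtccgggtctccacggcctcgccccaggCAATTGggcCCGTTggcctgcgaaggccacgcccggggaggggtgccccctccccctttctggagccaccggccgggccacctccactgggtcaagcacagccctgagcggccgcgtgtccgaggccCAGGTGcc
HHEX chr10:92689705-92690004 (plus strand): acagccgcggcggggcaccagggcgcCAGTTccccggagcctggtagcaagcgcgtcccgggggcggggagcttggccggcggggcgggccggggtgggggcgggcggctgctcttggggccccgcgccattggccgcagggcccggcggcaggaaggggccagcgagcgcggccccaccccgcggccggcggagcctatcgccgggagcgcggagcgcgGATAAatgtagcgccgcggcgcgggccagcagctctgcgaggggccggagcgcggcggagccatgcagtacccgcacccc
MYB chr6:135181058-135181357 (plus strand): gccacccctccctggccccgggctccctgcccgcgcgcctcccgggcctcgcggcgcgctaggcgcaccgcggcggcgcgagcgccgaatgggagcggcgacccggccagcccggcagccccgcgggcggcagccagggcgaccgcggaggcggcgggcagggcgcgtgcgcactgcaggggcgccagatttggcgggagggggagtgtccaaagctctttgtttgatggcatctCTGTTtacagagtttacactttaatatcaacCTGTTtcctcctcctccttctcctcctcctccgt
The TAL1 window shown held 2 GATAA matches, which began 67 and 35 bases before the start, and 1 E-box. The downstream TAL1 window, not shown, held 0 GATAA matches, 0 E-boxes and 3 MYB cores. The upstream GATA2 window, not shown, held none of these motifs. The downstream GATA2 window held 4 E-boxes and 1 MYB core, HHEX held 1 GATAA and 1 MYB core, and MYB held 2 MYB cores. Of 19 windows of the 8 genes, 6 held GATAA, 12 held CANNTG and 12 held AACNG. Of all 35116 promoter windows, 22.7% held GATAA, 68.7% held CANNTG and 77.2% held AACNG. These matches describe the letters in the windows and do not show binding.

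Libraries held 23168887 to 26596469 reads in MV411, 23281330 to 27240357 in MOLM13 and 44364964 to 72994481 in OCI-AML3. All 8 myeloid markers examined (CD33, MPO, SPI1, CEBPA, CD68, PTPRC, LYZ and CSF3R) reached 1 RPM in every group, where RPM is the usual scaling of reads to library total. Values below are reads divided by a size factor per library, called normalised values, and are comparable within a line only. Fold changes are differences of log2(normalised value + 1) with their standard error. They were tested with limma in 1 fit per line, over all genes tested in that line. Comparisons between lines used 1 fit per pair of lines, over genes tested in both. Genes were called at an adjusted p under 0.05 (Benjamini-Hochberg). A gene was tested in a line if at least 3 libraries reached 10. By that filter 6 of the 10 genes were tested in MV411, 6 in MOLM13 and 7 in OCI-AML3. Because treatment moved many genes, each count of the 10 is set beside the share of all tested genes.

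Exons of TBC1D5 overlap SATB1 on the same strand, and exons on the opposite strand overlap MYB and TAL1. Strand cannot tell reads of TBC1D5 and SATB1 apart where they overlap. Whether the counting used strand is not given in the sources used here, so reads opposite MYB and TAL1 cannot be told apart either.

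**Figure D1:**
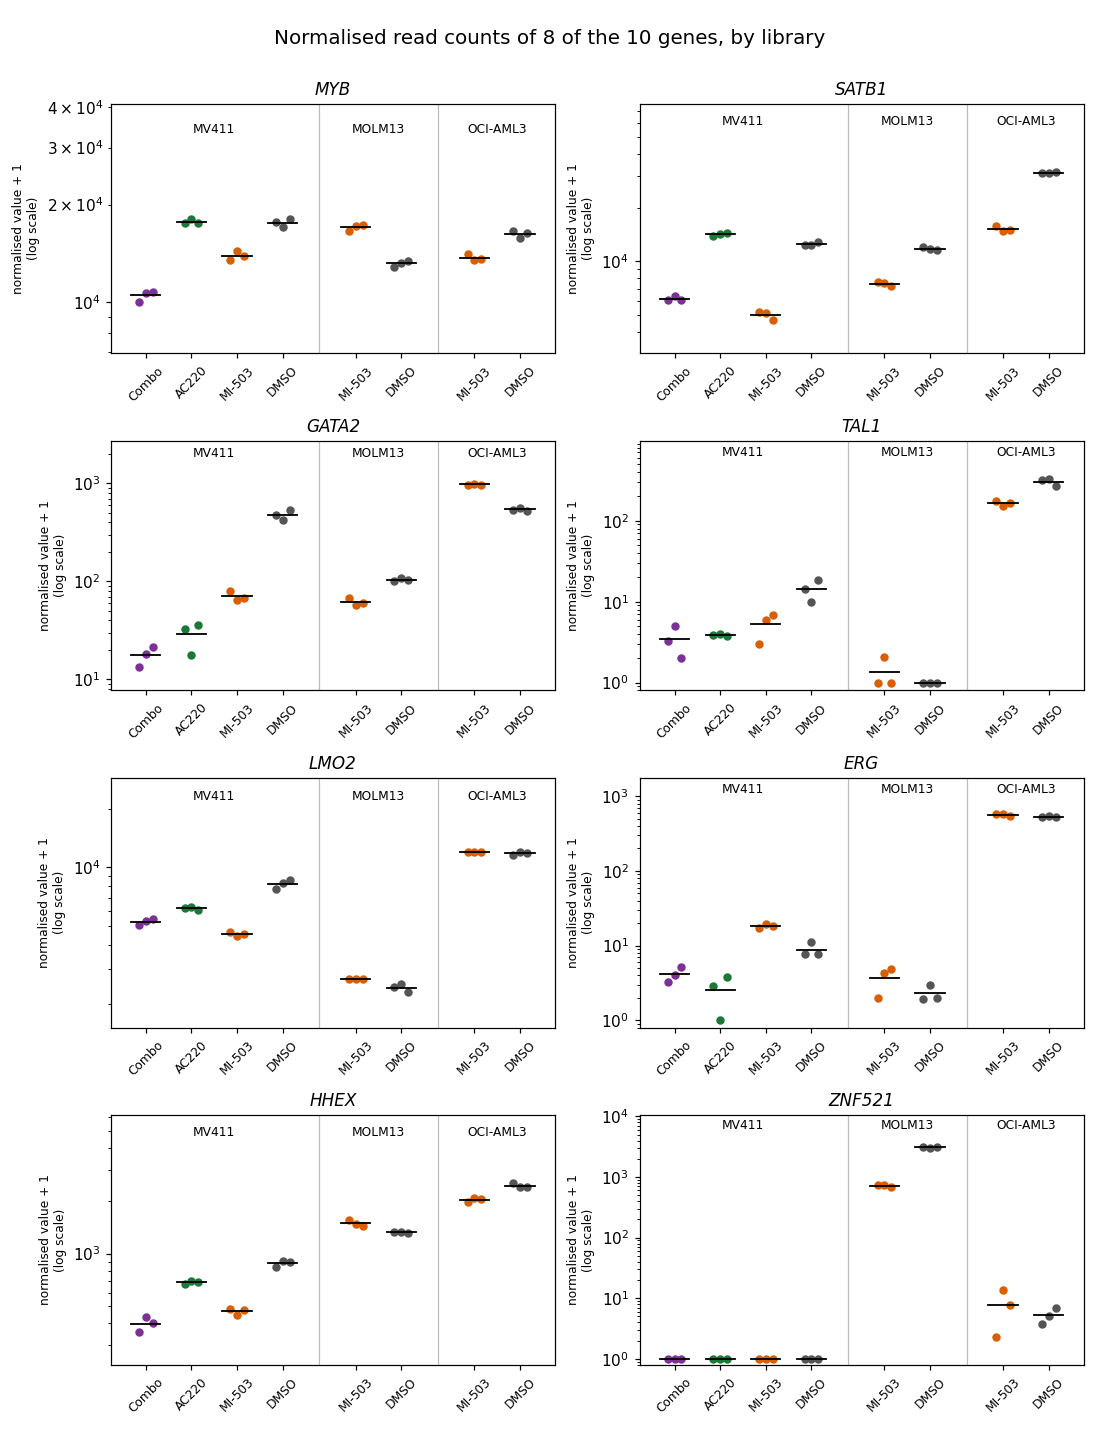
Normalised value + 1 (log axis) of 8 of the 10 genes in each of the 24 libraries. Points are libraries, horizontal bars are group means of 3, and treated groups stand left of DMSO in each line. GATA2 was lower in all 9 treated MV411 libraries than in the 3 DMSO libraries, ZNF521 had no read in MV411, and HLF and MECOM, with at most 4 reads in a group, are not drawn. Levels are scaled within each line and are not comparable between lines.

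In MV411, MI-503 lowered 5 of the 6 tested genes and raised none past the threshold. Of all 14421 tested genes 30.8% fell, 29.8% rose and 60.6% were called in either direction. Libraries of the 2 groups were wholly apart for 5 genes, all lower, and for ERG, which was higher and had entered the tested genes only through its MI-503 libraries, where 32.3% of all tested genes were apart and higher and 34.2% apart and lower. The median change of the 6 genes was -0.88 on the log2 scale, against -0.01 over all genes tested. The sizes differed widely. GATA2 fell most and MYB fell least. In bulk RNA, fewer cells that express a gene and less of its RNA per cell cannot be told apart. MI-503 was given for 3 days and AC220 for 24 hours, so drug and time cannot be told apart where these groups are ranked.

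GATA2, a zinc-finger factor needed for stem-cell maintenance and for mast cells and megakaryocytes (hg38 chromosome 3, 128479427 to 128493185, minus strand), had normalised values of 79.2, 64.3 and 66.2 in MI-503 libraries, against 471, 421 and 531 in DMSO libraries. The groups lay far apart. Its log2 fold change was -2.74 ± 0.213 (adjusted p = 1.02e-10), which ranked 119 by size among 14421 genes. With AC220 its values were 31.7, 16.9 and 34.7, and with the combination they were 12.4, 17.3 and 20.5, against the same DMSO libraries. All 6 of these libraries were below every MI-503 library. The log2 fold change against DMSO was -4.10 ± 0.213 with AC220 (adjusted p = 1.85e-14, rank 51) and -4.76 ± 0.213 with the combination (adjusted p = 6.52e-16, rank 45). The combination libraries and the AC220 libraries overlapped, and their difference of -0.66 ± 0.213 (adjusted p = 0.0109) was called. It was not called without AC220 replicate 1, AC220 replicate 3 or combination replicate 1, with values of -0.54, -0.47 and -0.47, nor without the variance trend (adjusted p = 0.0504). In reads, GATA2 had 48 in the 3 combination libraries, 87 in the 3 AC220 libraries, 213 in the 3 MI-503 libraries and 1458 in the 3 DMSO libraries.

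TAL1, the basic helix-loop-helix factor that pairs with E proteins (hg38 chromosome 1, 47216290 to 47232220, minus strand), was too low in MV411 to be tested. It had 2, 4 and 1 reads in combination libraries, 3 reads in each AC220 library and 2, 5 and 6 reads in MI-503 libraries, against 14, 9 and 18 reads in DMSO libraries. Every treated library held fewer TAL1 reads than any DMSO library. The ratio of RPM to DMSO was 0.181 with the combination, 0.22 with AC220 and 0.319 with MI-503, and the 95% exact intervals ran from 0.0687 to 0.408, from 0.094 to 0.46 and from 0.157 to 0.608. These intervals cover counting error only.

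ERG, an ETS-family factor of stem cells and endothelium (hg38 chromosome 21, 38380027 to 38661780, minus strand), was close to the detection limit as well. It had 2, 3 and 4 reads in combination libraries, 2, 0 and 3 reads in AC220 libraries and 16, 19 and 18 reads in MI-503 libraries, against 7, 10 and 7 reads in DMSO libraries. The MI-503 libraries lay above, and the combination and AC220 libraries below, every DMSO library. ERG passed the filter only through its MI-503 group, so a difference was built into its selection. Its log2 fold change was 1.07 ± 0.471 with MI-503 (adjusted p = 0.0531, not called), -1.97 ± 0.471 with AC220 (adjusted p = 6.49e-04) and -1.10 ± 0.471 with the combination (adjusted p = 0.0367). The MI-503 value was called without AC220 replicate 2, AC220 replicate 3 or combination replicate 1 (adjusted p = 0.0203, 0.0429 and 0.048). The combination value was not called without combination replicate 1, combination replicate 2, DMSO replicate 2 or DMSO replicate 3 (adjusted p = 0.103, 0.0658, 0.12 and 0.0526).

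**Figure D2:**
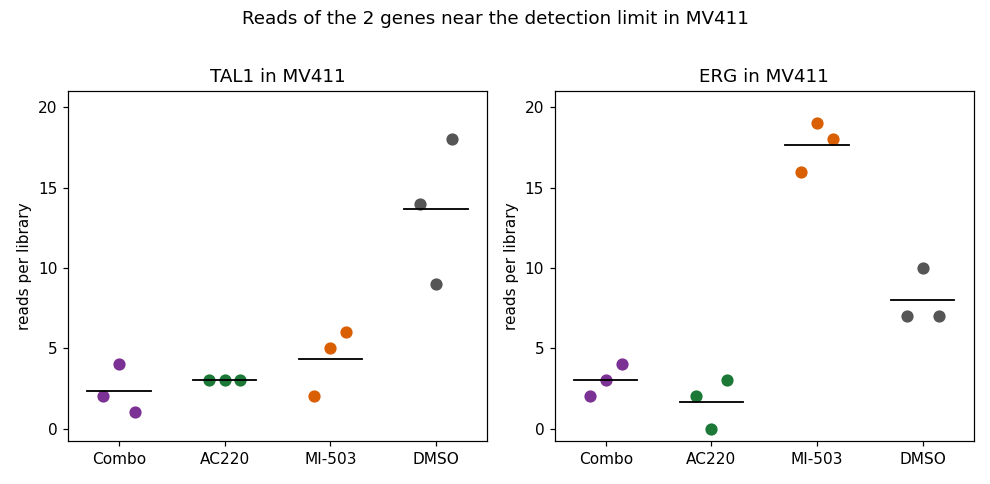
Reads per library (linear axis) of TAL1 and ERG in the 12 MV411 libraries. Points are libraries and bars are means of 3. TAL1 was lower in all 9 treated libraries than in the DMSO libraries, whereas ERG was higher with MI-503 and lower with AC220 and the combination.

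LMO2, the bridging protein of the TAL1 complex (hg38 chromosome 11, 33858576 to 33892289, minus strand), had values of 4674, 4466 and 4546 in MI-503 libraries, against 7773, 8261 and 8584 in DMSO libraries. With AC220 it had 6183, 6285 and 6033, and with the combination 5057, 5300 and 5398. The groups did not overlap, and the order from low to high was MI-503, combination, AC220, DMSO. LMO2 fell with MI-503 (-0.85 ± 0.0421, adjusted p = 3.40e-14), with AC220 (-0.41 ± 0.0421, adjusted p = 5.14e-09) and with the combination (-0.64 ± 0.0421, adjusted p = 1.03e-12). Against MI-503 alone the combination was higher by 0.20 ± 0.0421 (adjusted p = 1.74e-04).

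MYB (hg38 chromosome 6, 135181315 to 135219173, plus strand) had values of 13481, 14318 and 13836 in MI-503 libraries, against 17624, 17050 and 18071 in DMSO libraries. The combination libraries, at 10010, 10684 and 10734, were lower than all of these, whereas the AC220 libraries, at 17515, 17994 and 17578, lay within the DMSO range. MYB fell with MI-503 (-0.34 ± 0.0388, adjusted p = 6.30e-08) and with the combination (-0.75 ± 0.0388, adjusted p = 1.20e-14), and its log2 fold change with AC220 was 0.01 ± 0.0388 (adjusted p = 0.831; 95% interval -0.07 to 0.09). Set against all genes these changes were of middling size, at rank 5993 for MI-503 and rank 5404 for the combination.

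SATB1, which folds chromatin into loops and is best known from T cells and lymphoid progenitors (hg38 chromosome 3, 18345387 to 18445588, minus strand), had values of 5166, 5143 and 4683 in MI-503 libraries, against 12400, 12307 and 12827 in DMSO libraries. The combination libraries (6020, 6396 and 6069) lay just above the MI-503 libraries, and the AC220 libraries (13934, 14207 and 14347) lay above all DMSO libraries. SATB1 fell with MI-503 (-1.33 ± 0.0416, adjusted p = 8.36e-18) and with the combination (-1.02 ± 0.0416, adjusted p = 1.14e-16) and rose with AC220 (0.18 ± 0.0416, adjusted p = 4.83e-04). It was the only one of the 10 genes called higher with AC220.

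HHEX, a homeodomain repressor needed in early blood and endothelial development (hg38 chromosome 10, 92689951 to 92695646, plus strand), had values of 485, 445 and 474 in MI-503 libraries, against 835, 908 and 897 in DMSO libraries. The combination libraries (359, 432 and 402) were the lowest and the AC220 libraries (672, 697 and 686) lay between MI-503 and DMSO. HHEX fell with MI-503 (-0.91 ± 0.0695, adjusted p = 8.08e-11), with AC220 (-0.36 ± 0.0695, adjusted p = 6.25e-05) and with the combination (-1.15 ± 0.0695, adjusted p = 2.35e-13).

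Across the 3 treatments, AC220 raised 1 and lowered 4 of the 6 tested genes, where 37.7% of all tested genes rose, 37.3% fell and 74.9% were called. The same 5 genes had AC220 libraries wholly apart from DMSO libraries, where 39.1% of all tested genes were apart and higher and 38.7% apart and lower. The combination lowered all 6, where 39.3% of all tested genes rose, 40.1% fell and 79.4% were called. Its libraries were wholly apart from DMSO libraries for these 6 genes, where 39.2% of all tested genes were apart and higher and 40.1% apart and lower. The combination against MI-503 alone raised SATB1 (0.30 ± 0.0416, adjusted p = 7.75e-07) and LMO2 and lowered MYB (-0.41 ± 0.0388, adjusted p = 2.11e-09), GATA2 (-2.02 ± 0.213, adjusted p = 1.11e-08), ERG (-2.17 ± 0.471, adjusted p = 2.79e-04) and HHEX (-0.24 ± 0.0695, adjusted p = 0.0042), where 34.9% of all tested genes rose, 33.6% fell and 68.5% were called. All 6 genes were wholly apart here, 2 higher and 4 lower, where 36.3% of all tested genes were apart and higher and 34.2% apart and lower. The combination against AC220 alone lowered MYB (-0.76 ± 0.0388, adjusted p = 7.73e-14), SATB1 (-1.20 ± 0.0416, adjusted p = 6.07e-17), GATA2, LMO2 (-0.23 ± 0.0421, adjusted p = 5.79e-05) and HHEX (-0.79 ± 0.0695, adjusted p = 1.36e-09), where 27.4% of all tested genes rose, 28.1% fell and 55.5% were called. Of the 6 genes, 4 were wholly apart and lower and 0 apart and higher, where 29.5% and 29.6% of all tested genes were. ERG gave 0.87 ± 0.471 there (adjusted p = 0.124), and was called higher without AC220 replicate 3 (1.25, adjusted p = 0.0414). The ERG values against MI-503 rest on the group through which alone ERG passed the filter. These comparisons share libraries, so their counts are not independent of each other.

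The combination could also be set against the sum of the single log2 changes. For MYB the combination gave -0.75 and the sum of the single treatments -0.33, a difference of -0.42 ± 0.0548 (adjusted p = 1.58e-06). For GATA2 the combination gave -4.76 and the sum -6.85, a difference of 2.08 ± 0.301 (adjusted p = 5.50e-06). GATA2 held 48 reads in the 3 combination libraries, so its difference rests on low counts. Over 23 recomputed alternatives that difference ran from 1.77 to 2.27. For LMO2 the combination gave -0.64 and the sum -1.26, a difference of 0.61 ± 0.0595 (adjusted p = 1.45e-08). MYB was thus lower than the sum, and GATA2 and LMO2 were higher than it. The differences for SATB1 (0.12 ± 0.0588, adjusted p = 0.0941), HHEX (0.12 ± 0.0983, adjusted p = 0.338) and ERG (-0.21 ± 0.666, adjusted p = 0.826) were not called. In this test 20.9% of all tested genes were higher than the sum, 21.6% were lower and 42.5% were called.

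**Figure D3:**
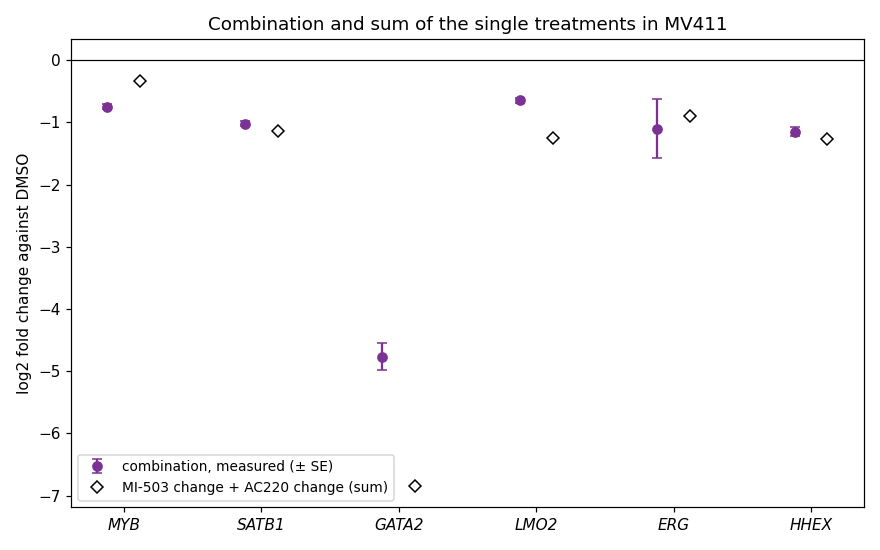
Log2 fold change against DMSO of the 6 genes tested in MV411. Filled circles are the measured combination with its standard error, and open diamonds are the sum of the MI-503 and AC220 changes. The circle lies below the diamond for MYB (-0.75 and -0.33) and above it for GATA2 (-4.76 and -6.85) and LMO2 (-0.64 and -1.26).

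In MOLM13, the deposited values carried a shift of the median gene of -0.54 (log2, MI-503 against DMSO), and in OCI-AML3 one of -0.16, which the median-of-ratios scaling used here sets to about 0. The deposited values of each line are labelled as ERCC-normalised. The MV411 values nonetheless had median-of-ratios scaling as deposited, so a shift of the median gene could not be seen there. Changes in each line are therefore relative to the median gene. On that scale 50% of the called genes were higher in MOLM13 and 50.1% in OCI-AML3, against 8.08% and 36.1% on the deposited scale.

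MI-503 in MOLM13 raised 3 and lowered 3 of the 6 tested genes relative to the median gene, where 29.9% of all tested genes rose, 29.9% fell and 59.9% were called. On the deposited scale 0 were higher and 5 lower, where 6.74% of all tested genes were higher and 76.7% lower, so that count lies near the share of all genes. The libraries were wholly apart for all 6, where 32.2% of all tested genes were apart and higher and 32.6% apart and lower. ZNF521, a cofactor of stem and progenitor cells reported at high levels in MLL-rearranged leukaemia (hg38 chromosome 18, 25061926 to 25352190, minus strand), had values of 731, 733 and 677 in MI-503 libraries, against 3184, 3036 and 3146 in DMSO libraries. It changed by -2.13 ± 0.0405 (adjusted p = 1.60e-16), rank 172 of 13391 genes, and by -2.66 on the deposited scale. SATB1 had 7600, 7507 and 7259 in MI-503 libraries, against 11987, 11642 and 11592 in DMSO libraries, and changed by -0.66 ± 0.0268 (adjusted p = 2.03e-12), or -1.19 on the deposited scale. GATA2 had 66.2, 56.8 and 58.7 in MI-503 libraries, against 100.3, 107 and 103 in DMSO libraries, and changed by -0.76 ± 0.129 (adjusted p = 7.76e-05), or -1.29 on the deposited scale. For these genes the MI-503 libraries lay below every DMSO library on both scales.

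The other tested genes of MOLM13 depended on the scale. MYB had 16537, 17182 and 17303 in MI-503 libraries, against 12837, 13185 and 13413 in DMSO libraries, and rose by 0.37 ± 0.0268 relative to the median gene (adjusted p = 3.36e-09), but gave -0.16 ± 0.0878 on the deposited scale (adjusted p = 0.0788). LMO2 gave 0.15 ± 0.0357 relative to the median gene (adjusted p = 0.00206) and -0.39 ± 0.0937 on the deposited scale (adjusted p = 6.22e-05). HHEX gave 0.16 ± 0.039 (adjusted p = 0.00175) and -0.37 ± 0.0971 (adjusted p = 2.24e-04) in the same order. Only the direction of ZNF521, SATB1 and GATA2 was thus the same on both scales in this line.

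MI-503 in OCI-AML3 raised 1 and lowered 4 of the 7 tested genes relative to the median gene, where 32.9% of all tested genes rose, 32.8% fell and 65.6% were called. On the deposited scale 0 were higher and 2 lower, where 3.85% of all tested genes were higher and 6.82% lower. The libraries were wholly apart and higher for 2 genes (GATA2 and ERG) and apart and lower for 4, where 34.9% and 34.8% of all tested genes were. GATA2 had 965, 993 and 973 in MI-503 libraries, against 540.3, 558 and 528 in DMSO libraries, and rose by 0.85 ± 0.0476 (adjusted p = 1.54e-08), or 0.69 ± 0.265 on the deposited scale (adjusted p = 0.0754). The direction was opposite to that in both MLL-fusion lines. TAL1 had 177, 152 and 163 in MI-503 libraries, against 315, 330 and 267 in DMSO libraries, and fell by 0.88 on the log2 scale (-0.88 ± 0.0966, adjusted p = 5.48e-06), or -1.04 ± 0.274 on the deposited scale (adjusted p = 0.0027). SATB1 had 15726, 14717 and 14903 in MI-503 libraries, against 31308, 31298 and 31692 in DMSO libraries, and changed by -1.06 ± 0.0284 (adjusted p = 2.66e-11), or -1.22 ± 0.269 on the deposited scale (adjusted p = 1.77e-04). The MI-503 and DMSO libraries of GATA2, TAL1 and SATB1 did not overlap.

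MYB in OCI-AML3 had 14058, 13429 and 13617 in MI-503 libraries, against 16507, 15747 and 16352 in DMSO libraries, and changed by -0.24 ± 0.0284 (adjusted p = 1.03e-05). HHEX had 1953, 2063 and 2032 in MI-503 libraries, against 2528, 2396 and 2379 in DMSO libraries, and changed by -0.27 ± 0.0382 (adjusted p = 4.78e-05). On the deposited scale both were lower without passing the threshold (adjusted p = 0.418 for MYB and 0.372 for HHEX). LMO2 gave 0.02 ± 0.0251 (adjusted p = 0.499) and ERG 0.08 ± 0.0522 (adjusted p = 0.179), with -0.14 and -0.08 on the deposited scale. ERG had 579, 572 and 546 in MI-503 libraries, against 532, 535 and 533 in DMSO libraries, so its groups were apart although it did not pass.

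**Figure D4:**
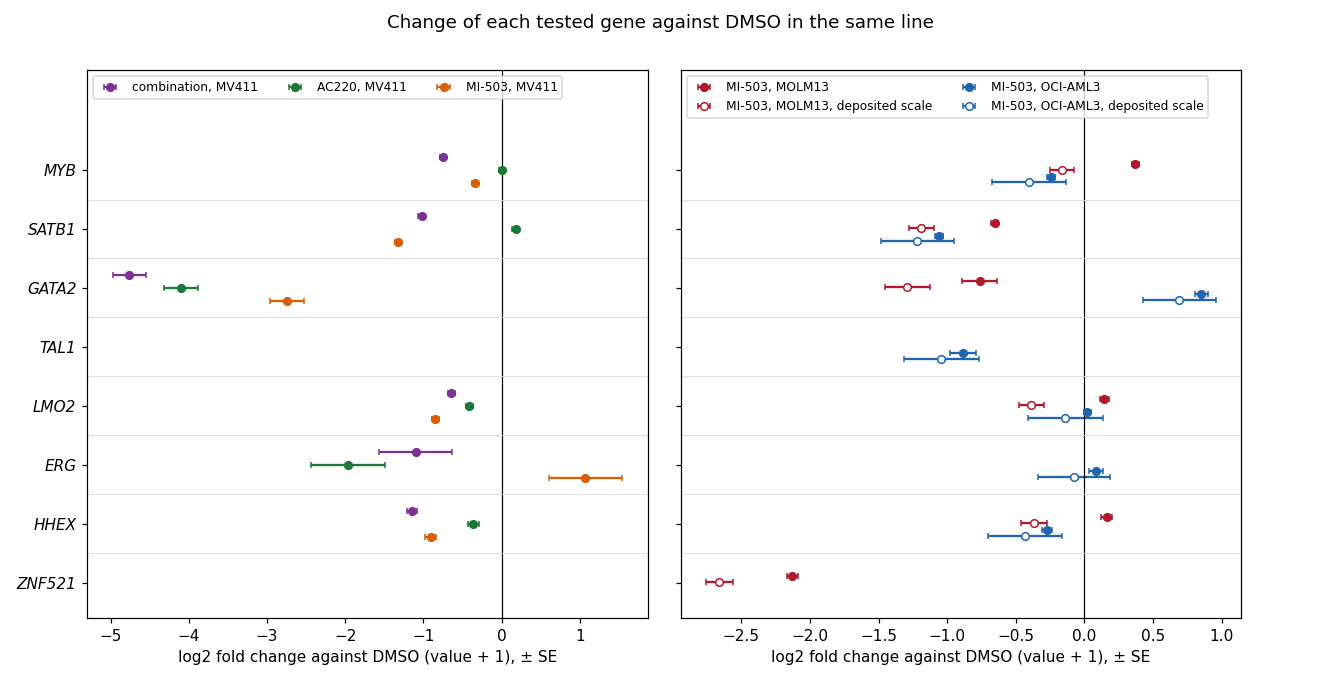
Log2 fold change against DMSO (value + 1) with its standard error, for the genes tested in MV411 (left) and in MOLM13 and OCI-AML3 (right). Filled circles are the values used here, and open circles the deposited scale. GATA2 ran from -4.76 with the combination in MV411 to 0.85 with MI-503 in OCI-AML3, and MYB, LMO2 and HHEX in MOLM13 changed sign on the deposited scale, as did LMO2 and ERG in OCI-AML3, which were not called.

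The remaining combinations of gene and line were near or at 0 reads. HLF, a factor of quiescent stem cells (hg38 chromosome 17, 55265012 to 55325065, plus strand), had at most 4 reads in any group of 3 libraries. MECOM, whose high expression marks a poor-risk group of leukaemias (hg38 chromosome 3, 169083499 to 169663618, minus strand), had 0 reads in all 12 MV411 libraries and at most 1 read in any group of the other lines. ZNF521 had 0 reads in MV411, which allows up to 0.0384 RPM in the DMSO group (3 reads over the group), and 20 reads in MI-503 libraries against 14 reads in DMSO libraries of OCI-AML3. TAL1 had 1 read in MI-503 libraries and 0 reads in DMSO libraries of MOLM13, and ERG had 8 reads against 4 reads there. No difference was detectable in these genes at this depth.

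The change with MI-503 was then compared between lines as a difference of the changes measured within each table, since the tables were normalised separately. MV411 cells had 3 days of MI-503 and the other lines 4 days, so line and time cannot be told apart in those comparisons. For GATA2 the change in MV411 minus that in OCI-AML3 was -3.59 ± 0.125 (adjusted p = 7.35e-15), rank 37 of 13709 genes. The change in MV411 minus that in MOLM13 was -1.98 ± 0.169 (adjusted p = 7.33e-10), and that in MOLM13 minus that in OCI-AML3 was -1.61 ± 0.111 (adjusted p = 9.53e-10). Higher differences made up 49.6%, 46.2% and 51.5% of the calls in these comparisons, against 66%, 89.6% and 19% on the deposited scale. GATA2 was called on the deposited scale as well, at -3.43, -1.46 and -1.98 in the same order. In MV411 the deposited factors equalled median-of-ratios factors, so deposited-scale differences between MV411 and another line set unlike scalings against each other.

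All 5 genes tested in both MV411 and MOLM13 were lower in their change in MV411, where 26.3% of all tested genes were higher, 30.6% were lower and 57% were called. LMO2 differed by -0.99 ± 0.055, HHEX by -1.07 ± 0.0698, MYB by -0.71 ± 0.0471 and SATB1 by -0.67 ± 0.051, with adjusted p of 2.80e-13, 5.96e-12, 8.06e-12 and 9.66e-11. On the deposited scale, LMO2 (-0.46) and HHEX (-0.54) were called and MYB (-0.18, adjusted p = 0.0656) and SATB1 (-0.14, adjusted p = 0.165) were not. MOLM13 minus OCI-AML3 gave 4 higher and 1 lower, where 32.4% of all tested genes were higher, 30.5% were lower and 62.9% were called, with MYB at 0.61 ± 0.0397, HHEX at 0.44 ± 0.0544, SATB1 at 0.40 ± 0.0395 and LMO2 at 0.13 ± 0.0434 (adjusted p = 0.0175). None of these 4 was called on the deposited scale, where LMO2 had the opposite sign (-0.25). LMO2 was not called without MOLM13 DMSO replicate 3 (0.09, adjusted p = 0.0555) or with equal library totals (0.065, adjusted p = 0.218). MV411 minus OCI-AML3 gave 4 lower and 1 higher of 6, where 31.8% of all tested genes were lower, 31.3% were higher and 63.1% were called. LMO2 (-0.87 ± 0.0486), HHEX (-0.64 ± 0.0692) and SATB1 (-0.27 ± 0.0525) were lower and ERG (0.99 ± 0.205) was higher. ERG passed the filter in MV411 only through its MI-503 group, which favoured that difference. On the deposited scale HHEX (-0.48, adjusted p = 0.195) and SATB1 (-0.11, adjusted p = 0.817) were not called. MYB gave -0.10 ± 0.0471 (adjusted p = 0.0727), was called without MV411 DMSO replicate 2 or MI-503 replicate 2 (-0.12 for both), and gave 0.06 on the deposited scale.

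In DMSO libraries, MYB stood at 691 ± 13.9 RPM in MV411, 518 ± 9.55 in MOLM13 and 267 ± 7.16 in OCI-AML3 (SD of 3). GATA2 stood at 18.6 ± 1.97, 4.07 ± 0.133 and 8.94 ± 0.227 in that order of lines, and LMO2 at 322 ± 13.1, 95.2 ± 4.87 and 195 ± 3.23. ERG and TAL1 were highest in OCI-AML3, at 8.80 ± 0.0139 and 5.02 ± 0.529, against 0.309 ± 0.0768 and 0.522 ± 0.162 in MV411. ZNF521 stood at 123 ± 3.03 in MOLM13. These levels come from separate tables and were not tested.

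The counts of gene lists below are to be read against the share of all tested genes called. With MI-503 in MV411 29.8% rose and 30.8% fell, with AC220 37.7% and 37.3%, with the combination 39.3% and 40.1%, with MI-503 in MOLM13 29.9% and 29.9%, and in OCI-AML3 32.9% and 32.8%. In MOLM13 6.74% were higher and 76.7% lower on the deposited scale, and in OCI-AML3 3.85% and 6.82%.

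Partners of the TAL1-LMO2-GATA2 complex moved in both directions. Of 12 partners tested, 5 rose and 5 fell with MI-503 in MV411, 8 rose and 3 fell with AC220, and 6 rose and 5 fell with the combination, with medians of 0.07, 0.50 and 0.23, against -0.01, 0.01 and 0.00 over all genes tested. LYL1, the closest relative of TAL1, rose with MI-503 (1.01 ± 0.0812, adjusted p = 2.07e-10), and TCF4, an E protein, fell with MI-503 (-1.35 ± 0.073) and with the combination (-1.17 ± 0.073) and rose with AC220 (0.86 ± 0.073). CBFB, the partner of RUNX1, fell in all 3 (-0.92, -0.98 and -1.50). In MOLM13 6 rose and 5 fell relative to the median gene and 0 rose and 8 fell on the deposited scale, and in OCI-AML3 5 rose and 4 fell, against 0 and 1 on the deposited scale.

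Among relatives of the 10 genes, MYBL2, the MYB relative of dividing cells, fell with AC220 (-5.03 ± 0.0678, adjusted p = 1.06e-24) and with the combination (-3.91 ± 0.0678, adjusted p = 2.27e-23). LMO4 rose with MI-503 in MV411 (1.35 ± 0.0546) and fell in OCI-AML3 (-0.90 ± 0.037). Of 9 relatives tested in MV411, 5 rose and 3 fell with MI-503, 4 rose and 3 fell with AC220, and 5 rose and 4 fell with the combination, with medians of 0.42, 0.13 and 0.19. In MOLM13 5 rose and 2 fell of 9, against 1 and 6 on the deposited scale, and in OCI-AML3 4 rose and 5 fell of 10, against 0 and 3.

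Of 20 other regulators of stem and progenitor cells, 16 were tested in MV411. With MI-503 2 rose and 10 fell (median -0.51), where 29.8% of all tested genes rose and 30.8% fell. With AC220 12 rose and 2 fell (median 0.22), where 37.7% and 37.3% did, and with the combination 3 rose and 10 fell (median -0.33). MEF2C, a MADS-box factor, fell with MI-503 (-2.81 ± 0.0575) and with the combination (-2.61 ± 0.0575), and SOX4 rose with AC220 (0.79 ± 0.0602). In MOLM13 1 rose and 10 fell of 15, against 0 and 13 on the deposited scale, where 76.7% of all tested genes were lower. PBX3, a HOX cofactor, changed there by -2.70 ± 0.0433. In OCI-AML3 5 rose and 8 fell of 15, against 0 and 3 on the deposited scale. Of 14 stem and progenitor surface and marker genes, 11 stood under 1 RPM in each of the 4 MV411 groups. KIT, the stem cell factor receptor, rose with AC220 (2.63 ± 0.108) and with the combination (2.18 ± 0.108).

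Genes reported to be regulated by MYB moved in both directions. Of 11 tested in MV411, 4 rose and 4 fell with MI-503, 4 rose and 3 fell with AC220, and 5 rose and 4 fell with the combination (medians -0.06, -0.02 and 0.05). In the comparison of the combination with the sum of the single treatments 2 were higher and 7 lower, where 20.9% and 21.6% of all tested genes were, with a median of -0.48 against -0.02 over all genes tested. BCL2, which blocks apoptosis, was lower than the sum by -1.01 ± 0.0692 (adjusted p = 4.29e-11). CCNB1, a mitotic cyclin, was higher than the sum (1.18 ± 0.0864). In MOLM13 6 rose and 4 fell of 11, against 4 and 5 on the deposited scale, and in OCI-AML3 6 rose and 3 fell of 10, against 1 and 2. Of 6 MYB co-factors, 2 rose and 1 fell with MI-503 in MV411, 0 rose and 3 fell in MOLM13 (0 and 6 on the deposited scale), and 0 rose and 3 fell in OCI-AML3 (0 and 0).

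Markers of other cell types moved alongside these changes, and their part in the results was not tested. The 10 monocyte-macrophage markers summed to 7995 to 8146 RPM in combination libraries, 2921 to 3155 in AC220 libraries and 7093 to 7487 in MI-503 libraries, against 1496 to 1563 in DMSO libraries of MV411. LYZ, which encodes lysozyme, had the highest reads of these markers in each group. CD163 and VCAN had no read in MI-503 and AC220 libraries, and 5 of the 10 markers stood under 1 RPM in DMSO libraries. The 7 megakaryocyte markers summed to 16.0 to 19.6 in combination libraries, 39.9 to 46.2 in AC220 libraries and 12.8 to 14.3 in MI-503 libraries, against 36.5 to 39.0 in DMSO libraries, with PF4 at 0 reads in all groups. The 7 mast cell and basophil markers summed to 17.7 to 20.6, 45.9 to 52.3 and 12.5 to 14.2 in the same 3 groups, against 43.4 to 57.0 in DMSO libraries, with CPA3 at 0 reads in all groups. Both sums were lower than in DMSO libraries with MI-503 and the combination, and with AC220 they lay within or above the DMSO range. GATA2 itself was lower with all 3 treatments. Each sum rested mostly on 1 gene, and 5 of the 7 genes of each list stood under 1 RPM in every MV411 group. ITGA2B had a mean normalised value of 233 with MI-503 against 851 with DMSO, and PRG2 had 301 against 1239. The megakaryocyte marker GP1BA went the other way, with a mean of 94.4 with MI-503 against 72.5 with DMSO. It also rose with AC220 (1.11 ± 0.121, adjusted p = 1.34e-08). In MOLM13 the monocyte-macrophage markers summed to 735 to 884 in MI-503 libraries, against 258 to 263 in DMSO libraries, and in OCI-AML3 to 1237 to 1258, against 1042 to 1077. The 10 markers did not move together in OCI-AML3, where 6 were higher and 4 lower relative to the median gene, and 1 higher and 4 lower on the deposited scale. LYZ was higher there (0.65 ± 0.0238), whereas CD14 (-0.68), CSF1R (-2.46), FCN1 (-1.74) and VCAN (-2.01) were lower; these genes were named after their values were seen. Of 10 erythroid markers, 8 or 9 stood under 1 RPM in every group. Endothelial markers, 7 genes, summed to 229 to 241 RPM in combination libraries, 164 to 172 in AC220 libraries and 156 to 158 in MI-503 libraries, against 123 to 134 in DMSO libraries of MV411, with KDR at 0 reads. The endothelial markers did not move together. PECAM1 had a mean normalised value of 1910 with MI-503 against 1759 with DMSO, and ENG had 2039 against 1419. VWF was lower with the combination (-1.23), AC220 (-2.29) and MI-503 (-2.54). ESAM was lower with MI-503 (-0.57) and higher with the combination (0.64). VWF and ESAM were named after their values were seen. T and NK cell, B cell, and epithelial and fibroblast markers had at most 3 genes of a list at or above 1 RPM in any group.

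By Pearson correlation of log2 values over the 12 MV411 libraries, among 11050 genes, the genes most like MYB were CDK6 (0.994), BCL2 (0.992) and ABCB10 (0.989). Those most like SATB1 were MEIS1 (0.997), EMR2 (0.996) and HOXA10 (0.995). POMP (0.995), ARL6IP6 (0.994) and MORF4L2 (0.992) were most like GATA2, and CANX (0.988), PLP2 (0.988) and TMEM154 (0.985) were most like LMO2. SEC61A2 (0.989), UPF2 (0.988) and SLC38A1 (0.986) were most like HHEX, and TYSND1 (0.959), TTC3 (0.953) and ADAT2 (0.953) were most like ERG. The 12 libraries are 4 groups of 3 that share these treatments and the scaling, so the values describe likeness of group pattern. In MOLM13 CDK6 fell by 0.93 on the log2 scale relative to the median gene, where MYB gave 0.37 (-0.16 on the deposited scale). BCL2 gave -0.08 there (not called), and ABCB10 rose by 1.17. In OCI-AML3 CDK6 fell by 0.63 and MYB by 0.24, whereas BCL2 gave -1.03 and ABCB10 -0.03 (not called). MEIS1 and SATB1 fell in all 3 lines with MI-503, and the log2 fold change of MEIS1 was -2.31 in MV411, -1.65 in MOLM13 and -2.62 in OCI-AML3. EMR2 and HOXA10 did not fall in MOLM13 relative to the median gene, at 0.08 for both. In OCI-AML3 they gave -0.80 and -0.48.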

How the data were processed

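RNA was sequenced from 24 libraries of 3 acute myeloid leukaemia lines in 8 groups of 3. The deposited values are a signal per gene: read counts that the authors divided by a size factor per library, per the submitters' processing notes, which name DESeq version 2 and hg38. The aligner, the counter and its use of strand are not given in the sources used here. All values were whole multiples of 1 read within 0.001, so reads were recovered, and in 3 columns that step was near 1. No per-sample columns were left out (0).

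In MV411 the deposited factors equalled median-of-ratios factors. In MOLM13 and OCI-AML3 they did not, so reads were divided by median-of-ratios factors, and the deposited scale was an alternative. The deposited values of each line, MV411 included, are labelled as ERCC-normalised. Whether spike-in reads set the deposited factors of MOLM13 and OCI-AML3 was not tested. Genes reaching a value of 10 in 3 or more libraries were tested with limma 3.58.1 (R 4.3.3) on log2(value + 1), a pseudocount of 1, with a variance trend and a Benjamini-Hochberg adjusted p of 0.05. This scale understates changes of low genes. Comparisons in MV411 used all 12 of its libraries. Count tests on recovered reads gave similar numbers of calls: for MI-503 in MV411, MOLM13 and OCI-AML3, edgeR 4.0.16 called 8821, 8046 and 10350 genes and DESeq2 1.42.0 called 8254, 6889 and 9510, against 8734, 8015 and 10294 with limma. Other pseudocounts, filters and scalings, a replicate block and each library left out were also tried, and the fit was tested on simulated data.

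Correlations of same-numbered deviations ran from -0.0814 to 0.121 in MV411, from -0.00674 to 0.0698 in MOLM13 and from -0.0497 to 0.0378 in OCI-AML3. Differently numbered libraries gave -0.120 to 0.0860 in MV411, -0.102 to 0.0502 in MOLM13 and -0.0495 to 0.0849 in OCI-AML3. These values show no clear pairing by number, but cannot tell whether same-numbered cultures were set up together. No 2 libraries of a group were duplicates (chi-square per degree of freedom 1.59 to 9.41 over 24 pairs). Intervals (95%) and floors (3 reads over a group) cover counting error only. Gene positions are from GENCODE on hg38. The 10 genes and all gene lists were chosen with earlier results of these data known. All 10 genes are named, plus at most 3 genes per list and comparison, those past the threshold with the largest change and a mean of at least 100 in 1 group, and the 3 genes most like each of the 10. One gene of these lists that the rule would name is not reported here.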

Additional observations from a re-analysis of the deposited data

Results flagged for a closer look

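The change with MI-503 differed between lines past the threshold in 15 cases, each by a test of the difference itself (limma over both lines, in log2 relative to the median gene).

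For GATA2 the change was lower in MV411 than in OCI-AML3 by -3.59, lower in MV411 than in MOLM13 by -1.98, and lower in MOLM13 than in OCI-AML3 by -1.61. For LMO2 it was lower in MV411 than in MOLM13 by -0.99 and than in OCI-AML3 by -0.87, and MOLM13 minus OCI-AML3 gave 0.13. For HHEX the same 3 differences were -1.07, -0.64 and 0.44, and for SATB1 they were -0.67, -0.27 and 0.40. For MYB, MV411 minus MOLM13 gave -0.71 and MOLM13 minus OCI-AML3 gave 0.61. For ERG, MV411 minus OCI-AML3 gave 0.99, with 53 reads in MI-503 libraries and 24 reads in DMSO libraries of MV411. ERG had passed the filter in MV411 only through its MI-503 group, which favoured that difference, and it was not tested at a minimum value of 50. Days of treatment differ between MV411 and the other lines and cannot be told apart from the line.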

How the results depend on the processing

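Of 1428 recomputed values for 65 fold changes, 1381 kept their direction and their side of the threshold, 22 lost the call, 14 gained one and 11 changed sign; TMM scaling changed none of the 65. On the deposited scale 17 differed: in MOLM13 0 of the 10 genes were called higher and 5 lower, where 6.74% and 76.7% of all tested genes were, with MYB at -0.16, LMO2 at -0.39 and HHEX at -0.37, and in OCI-AML3 1676 genes in all were called, with 0 of the 10 higher and 2 lower, where 3.85% and 6.82% of all tested genes were, LMO2 at -0.14 and ERG at -0.076. Between lines on that scale, MOLM13 minus OCI-AML3 had 3222 genes called, 0 of the 10 higher (4.70% of all tested genes) and LMO2 at -0.25, MV411 minus MOLM13 had 3 of the 10 lower (8.08% of all tested genes, with 69.5% higher), and MV411 minus OCI-AML3 had 2687 genes called, 2 of the 10 lower (6.66% of all tested genes, with 12.9% higher) and MYB at 0.060. ERG with MI-503 in MV411 was called (1 of the 10 higher) with a pseudocount of 8, without the filter, without the variance trend, with edgeR and with only the 6 libraries compared. Equal library totals gave 3 higher in OCI-AML3, no filter gave 2 lower for MOLM13 minus OCI-AML3, and a minimum of 50 gave 0 higher for MV411 minus OCI-AML3. ERG differed from the sum by 0.045 with a pseudocount of 0.5, and ERG in the combination was not called then (adjusted p = 0.0612) or with DESeq2 (adjusted p = 0.0734). Deposited-scale differences with MV411 set unlike scalings against each other, since its deposited factors equalled median-of-ratios factors. The causes were not tested.

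Leaving out 1 library at a time, the number of the 10 genes called higher ranged from 0 to 1 for MI-503 in MV411, from 0 to 1 for the combination against AC220 and from 3 to 4 for MOLM13 minus OCI-AML3. The number called lower ranged from 5 to 6 for the combination against DMSO, from 4 to 5 for the combination against AC220 and from 4 to 5 for MV411 minus OCI-AML3. Fold changes that turned sign were those of MYB with AC220 (range -0.012 to 0.030; -0.0025 without AC220 replicate 2 and -0.012 without DMSO replicate 2) and of ERG against the sum (range -0.79 to 0.18; 0.18 without AC220 replicate 3). The fit with a replicate block changed none of the 65 calls and gave 8701, 8223 and 9956 genes for MI-503 in MV411, MOLM13 and OCI-AML3. At this depth HLF, MECOM, ZNF521 outside MOLM13, and TAL1 and ERG outside OCI-AML3 gave few or no reads. Of 7320 recomputed list counts 6995 were within 1.5 times of the reported ones.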
